A study of Mus musculus with 24 samples.

Results

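The SLC25 family holds the carrier proteins that move small molecules across the inner mitochondrial membrane. The members described here are the protein-coding mouse genes whose symbol is Slc25a followed by a number. The rule gave 47 genes, all of them among the 21631 protein-coding genes in the count files, and 43 of the 47 were among the 20368 genes with enough reads to be tested. Slc25a1, Slc25a2, Slc25a29 and Slc25a45 were not tested, and Slc25a2 and Slc25a29 had 0 reads in the 21 libraries used.

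SLC25 carriers share a fold built of repeated membrane-spanning helices and usually exchange one solute for another. In the heart the ADP/ATP carrier and the phosphate carrier supply ATP synthase and export the ATP it makes, the carnitine/acylcarnitine carrier brings in fatty acids for oxidation, and the aspartate/glutamate and oxoglutarate/malate carriers form the membrane part of the malate-aspartate shuttle, which passes reducing power from cytosolic NADH to the matrix. Cardiomyocytes turn from glycolysis towards fatty acid oxidation in the weeks after birth, and mitochondrial content grows over the same time.

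RNA was measured in cardiomyocyte (CM) nuclei sorted for PCM1, a protein of the CM nuclear surface, from hearts of mice at postnatal day (P) 1, 7 and 14. All mice carried the floxed allele Casp2(fl/fl) on both chromosomes. Control mice were XMLC2(-)Casp2(fl/fl), and Casp2-depleted mice were XMLC2(+)Casp2(fl/fl), which also carry Cre recombinase under the cardiac promoter XMLC2, so that the gene of the protease Caspase-2 is deleted in CMs. Each of the 6 groups had 4 libraries, each a pool of 15 hearts at P1, 6 hearts at P7 and 2 hearts at P14, so day and pool size cannot be told apart. The control mice lack Cre, so Cre and loss of Casp2 cannot be told apart either.

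Following the study, replicate 1 of P1 control, replicate 3 of P14 control and replicate 1 of P14 Casp2-depleted were left out. This leaves 21 libraries with 3 or 4 per group. The study excluded these replicates for low quality. In P1 control replicate 1 it took high mitochondrial, ribosomal and translation gene sets as a sign of cytoplasmic contamination. The 21 libraries used held 891817 to 2924097 reads on genes, and 34.3 to 76.1% of their reads lay on no gene. Casp2 had 9 reads in P7 control, 8 reads in P7 Casp2-depleted and 0 reads in the other groups, so its reads do not check the labels. All 10 CM markers had reads in every group, and their summed level in normalised CPM (CPM after TMM scaling) was 63406 to 139439 in P7 control, 44951 to 81740 in P7 Casp2-depleted, 9127 to 39451 in P14 control and 10215 to 21862 in P14 Casp2-depleted. It was thus lower in every P14 library than in every P7 library, as it was in CPM of reads on genes without scaling factors. The summed level of 5 mural markers was 264 to 650 normalised CPM in P7 and 89.8 to 189 in P14 Casp2-depleted libraries, where Pdgfrb was at 0, and overlapped without scaling factors (258 to 476 and 128 to 276). The summed level of 7 endothelial markers overlapped in normalised CPM (203 to 505 in P7 and 376 to 503 in P14 Casp2-depleted libraries, where Cdh5 and Kdr were at 0) and did not without scaling factors (142 to 369 and 571 to 612). The summed fibroblast, macrophage, erythroid and brown adipocyte markers overlapped between P7 and P14 in both genotypes on both scales. The libraries hold nuclear RNA counted over whole genes, so mature cytoplasmic mRNA, on which most knowledge of these carriers rests, was not measured.

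The 47 genes drew 50948 reads in the 21 libraries, and a small set of them drew most. Slc25a13, Slc25a21, Slc25a12, Slc25a20 and Slc25a23 held 54.3% of the family's reads, and the first 10 genes held 75.8%. Only Slc25a12, Slc25a13, Slc25a20, Slc25a21, Slc25a23 and Slc25a32 had a read in all 21 libraries, while 19 members had reads in fewer than 10 libraries. Per kilobase of gene span the order of levels changed. Slc25a4, the ADP/ATP carrier of heart and muscle, came first with 10.4 normalised CPM per kb, followed by Slc25a23 with 6.36, Slc25a20 with 5.73 and Slc25a32 with 4.16. Slc25a21, whose gene spans 484.8 kb, was second by reads and came at rank 25 per kb of span with 0.495 normalised CPM per kb. Over the 43 tested members, Spearman's rho of the reads with gene span was 0.29.

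**Figure D1:**
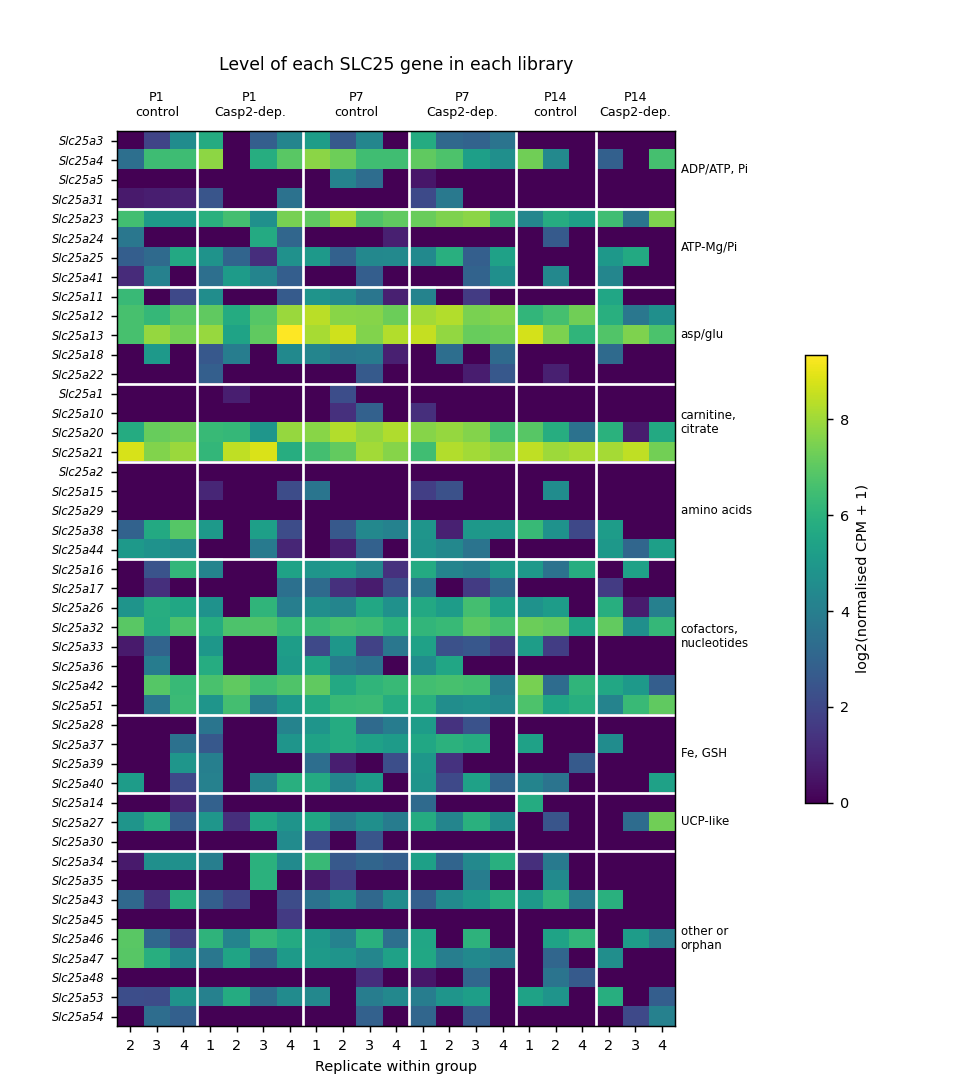
Heat map of 46 SLC25 genes (rows, grouped by what they carry) in the 21 libraries (columns, grouped by day and genotype, numbered by replicate). The colour gives log2(normalised CPM + 1), and the darkest colour marks 0 reads. 6 rows are lit in all 21 libraries, and the P14 libraries hold between 14 and 26 members with a read.

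Summed over the family, the level in CPM of reads on genes ran from 1204 to 2132 over the 21 libraries with a median of 1459. It was 1538 ± 323 (SD, n = 3) in P1 control, 1554 ± 223 (n = 4) in P1 Casp2-depleted, 1434 ± 248 (n = 4) in P7 control, 1423 ± 160 (n = 4) in P7 Casp2-depleted, 1654 ± 429 (n = 3) in P14 control and 1473 ± 268 (n = 3) in P14 Casp2-depleted. All 6 groups overlapped on this scale. In normalised CPM the sum was 1629 to 2127 in P7 control against 1322 to 1589 in P1 control, and 837 to 1183 in P14 Casp2-depleted against 1254 to 2114 in P7 Casp2-depleted, and these pairs did not overlap. Counted at an equal depth of 891817 reads per library, the group medians of the number of members with a read were 27.2 and 28.3 members at P1, 31.4 and 30.1 at P7 and 18.9 and 16 at P14, control first. Each P14 library lay below each P7 control library, whose lowest value was 26.4. Over all genes, counted at full depth, fewer genes had a read at P14 too. They numbered 14416 to 17614 in P7 control and 14006 to 17770 in P7 Casp2-depleted libraries. At P14 they numbered 7628 to 13651 in control and 9428 to 12327 in Casp2-depleted libraries. Many values of 0 stood beside high ones in the same group. Where another replicate of the group had at least 20 reads of a member, the member was at 0 reads in 8.70% of cases in P7 control and 16.8% in P7 Casp2-depleted, against 27.1% in P14 control and 36.7% in P14 Casp2-depleted. Over all genes these shares were 13, 15.8, 32.1 and 28.2%.

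**Figure D2:**
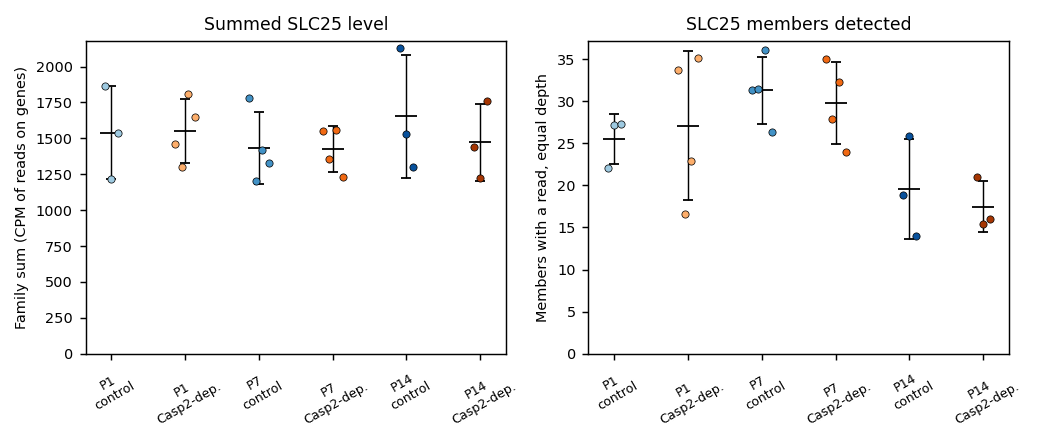
Left, the summed level of the 47 SLC25 genes in each library in CPM of reads on genes. Right, the number of the 47 with a read at an equal depth of 891817 reads. Points are libraries, bars are the mean and SD of a group (n = 3 or 4), and both axes start at 0. On this scale, without scaling factors, the sums overlap in all groups, and the number of members is lower in the P14 groups, with medians of 18.9 and 16. Over all genes, at full depth, fewer genes had a read at P14 than at P7 as well.

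Across days, 1 member passed the test in 1 of the 6 comparisons. Slc25a12, which encodes the aspartate/glutamate carrier aralar, fell between P7 and P14 in Casp2-depleted CMs. A gene was called at an adjusted p below 0.05 (edgeR, quasi-likelihood, adjusted by Benjamini-Hochberg over 20368 genes) and an absolute log2 fold change above 1. In P14 over P7, 1 of 43 members was called in Casp2-depleted CMs, where 2.83% of all tested genes were called, and 0 of 43 in control CMs, where 1.88% were. At an unadjusted p below 0.05 there were 8 members in Casp2-depleted CMs against 16% of all genes, and 12 members in control CMs against 14.8%. The median log2 fold change of the 43 members was -1.15 in Casp2-depleted and -1.19 in control CMs, beside -0.61 and -0.75 over all tested genes. Of all 47 members, 12 and 15 had 0 reads in a group compared and more than 3 reads in the other group. With the tested ones among these at their bound, the medians of the 43 members were -1.13 and -1.14. Over the members read in every library of both groups the median was -0.74 in Casp2-depleted CMs (9 members, beside -0.02 over such genes) and 0.02 in control CMs (10 members, beside -0.03). Members with every P14 library below every P7 library numbered 5 in Casp2-depleted CMs, where 10.9% of all genes did so, and 10 in control CMs, where 13.5% did. In normalised CPM no member had every P14 library above every P7 library in either genotype, while without scaling factors Slc25a21 did in both and Slc25a43 did in control CMs. Without scaling factors the median of all genes moved to 0 in both genotypes and the members' medians moved to -0.50 and -0.61, Casp2-depleted first. DESeq2 called 3 members in Casp2-depleted CMs (Slc25a3, Slc25a12 and Slc25a34) and 1 in control CMs (Slc25a25), and limma-voom with TMM called 3 and 4. Here and in the comparisons below, the share of all genes called by these 2 tools is not given. Their counts are therefore not read as a result about the members.

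For P7 over P1, 0 of 43 members were called in control CMs (0.00982% of all genes) and 0 in Casp2-depleted CMs (0.0196%). At an unadjusted p below 0.05 there were 3 members in control CMs against 6.67% of all genes and 4 members in Casp2-depleted CMs against 7.4%. DESeq2 called 0 members in both genotypes, and limma-voom with TMM called 2 in control CMs, Slc25a28 among them. In control CMs 7 members lay higher in every P7 library than in every P1 library, where 6.89% of all genes did so, and 2 members lay lower, where 2.86% did. Among the 7 were Slc25a20, Slc25a28 and Slc25a37, which still did not overlap on CPM without scaling factors, and Slc25a4, Slc25a12 and Slc25a23, which then did. In Casp2-depleted CMs the only member that did not overlap was Slc25a43, higher at P7, where 1.48% of all genes did so, and it overlapped without scaling factors.

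For P14 over P1, 0 of 43 members were called in control CMs (0.319% of all genes) and 0 in Casp2-depleted CMs (1.94%). At an unadjusted p below 0.05 there were 8 members in control CMs against 11.5% of all genes and 10 in Casp2-depleted CMs against 17.5%. DESeq2 called 3 members in each genotype, and limma-voom with TMM called 2 in control and 0 in Casp2-depleted CMs. Every P14 library lay below every P1 library for 5 members in control CMs, where 6.41% of all genes did so, and for 1 member in Casp2-depleted CMs, Slc25a42, where 4.78% did. In Casp2-depleted CMs, Slc25a12 was called without P14 Casp2-depleted replicate 2 and Slc25a4 without P14 Casp2-depleted replicate 4.

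Between genotypes no member was called at any day. At P1 and P7 the counts were 0 of 43 members with 0% of all genes called, and 4 and 1 members had an unadjusted p below 0.05, against 7.34 and 4.22% of all genes. DESeq2 and limma-voom with TMM also called 0 members at these days. At P14 0 of 43 members were called against 0.167% of all genes, and 8 had an unadjusted p below 0.05 against 12.8%. DESeq2 called Slc25a25, Slc25a27 and Slc25a44 there, and limma-voom with TMM called Slc25a44. At P1 Slc25a44 lay lower in every Casp2-depleted library than in every control library (2.27% of all genes). At P7 no member separated the genotypes in normalised CPM, where 1.64% of all genes did in either direction. Without scaling factors, Slc25a20 lay lower in every P7 Casp2-depleted library. At P14 Slc25a44 lay higher in every Casp2-depleted library (3.01% of all genes) and Slc25a12 lay lower (2.14%).

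The test of whether the change between days differed between the genotypes, the interaction of genotype and day, called 0 of 43 members for each pair of days. The shares of all genes called were 0% for P7 over P1, 0.0245% for P14 over P7 and 0.0638% for P14 over P1. At an unadjusted p below 0.05 there were 4, 7 and 11 members, against 6.83, 9.76 and 11.7% of all genes. DESeq2 called 0, 0 and 2 members (Slc25a25 and Slc25a44), and limma-voom with TMM called 0, 0 and 1 (Slc25a44).

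**Figure D3:**
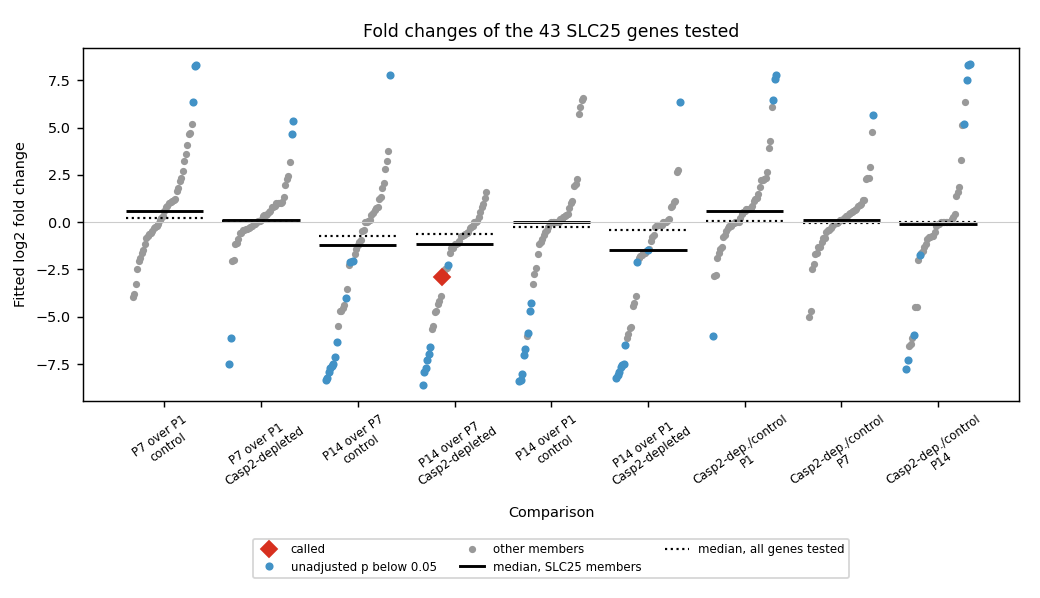
Fitted log2 fold change of each of the 43 tested SLC25 genes (points, in rank order within each comparison) in the 9 comparisons between groups. The red diamond is the 1 called member, Slc25a12 in P14 over P7 of Casp2-depleted CMs at -2.90, blue points have an unadjusted p below 0.05, the solid line is the members' median and the dotted line that of the 20368 genes tested. The medians of members and of all genes are both below 0 for P14 over P7 in both genotypes, and points beyond about 5 on either side come from members near 0 reads in 1 group.

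The carriers of the malate-aspartate shuttle were the most heavily read group. Slc25a12 (aralar, ENSMUSG00000027010) lies on the minus strand at chr2:71101407-71198167 of GRCm39 and exports aspartate from the matrix in exchange for glutamate. Its level in normalised CPM was 97.5, 74.0 and 119 in the P1 control libraries and 134, 52.6, 118 and 247 in P1 Casp2-depleted. At P7 it was 332, 203, 202 and 150 in control and 263, 309, 177 and 196 in Casp2-depleted libraries. At P14 it was 69.3, 95.3 and 157 in control, and 58.5, 12 and 24.2 in Casp2-depleted libraries, from 83, 19 and 37 reads. The 3 P14 Casp2-depleted libraries lay below every P7 library of their genotype and below the 3 P14 control libraries, while P7 control and P7 Casp2-depleted overlapped. P14 over P7 gave a log2 fold change of -2.90 (SE 0.76, adjusted p = 0.00825, edgeR) in Casp2-depleted CMs and of -1.05 (SE 0.70, adjusted p = 0.407) in control CMs. The interaction, the difference between those changes, was -1.85 (SE 0.97, adjusted p = 0.53) and was not called, nor was Casp2-depleted over control at P14, at -1.76 (SE 0.75, adjusted p = 0.379).

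The call of Slc25a12 was lost without P14 Casp2-depleted replicate 3 (log2 fold change -2.31, adjusted p = 0.207) or replicate 4 (-2.57, adjusted p = 0.124), and with all 24 libraries (-3.25, adjusted p = 0.184). It was also lost with limma-voom on quantile-normalised values (-2.84, adjusted p = 0.0748). Without scaling factors it was -2.15 (adjusted p = 0.168), and with the no-gene share of reads as a covariate it was -2.19 (adjusted p = 0.199). That share was 72.2 to 76.1% in the 3 P14 Casp2-depleted libraries and 34.3 to 64.3% in the 4 P7 Casp2-depleted libraries. The CM markers were lower at P14 as well, with a median log2 fold change of -2.48 over the 10 markers in Casp2-depleted CMs, where Ryr2, Tnnt2 and Pln were called. The part of these 2 measures in the fall of Slc25a12 was not tested beyond the fit with that share, and in bulk samples fewer nuclei of a type and less RNA per nucleus cannot be told apart.

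The 250 bases before the start of Slc25a12 are shown because it is the one called member, beside those of Slc25a20, whose P14 libraries lay below its P7 libraries in both genotypes, and of Slc25a4, the first member per kb of span. They were taken from RefSeq on GRCm38.p6, written 5′ to 3′ on the strand of the gene, at chr2:71367756-71368005 (minus), chr9:108661886-108662135 (plus) and chr8:46211063-46211312 (minus). Capitals mark the letters of 3 motifs searched on both strands, the half-site of estrogen-related receptors (AAGGTCA), the GC box (GGGCGG) and the CCAAT box (CCAAT), which do not share letters.
Slc25a12: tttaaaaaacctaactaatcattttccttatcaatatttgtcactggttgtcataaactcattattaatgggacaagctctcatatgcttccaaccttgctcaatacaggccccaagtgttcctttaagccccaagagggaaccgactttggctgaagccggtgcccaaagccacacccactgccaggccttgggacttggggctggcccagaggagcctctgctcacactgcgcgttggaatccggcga
Slc25a20: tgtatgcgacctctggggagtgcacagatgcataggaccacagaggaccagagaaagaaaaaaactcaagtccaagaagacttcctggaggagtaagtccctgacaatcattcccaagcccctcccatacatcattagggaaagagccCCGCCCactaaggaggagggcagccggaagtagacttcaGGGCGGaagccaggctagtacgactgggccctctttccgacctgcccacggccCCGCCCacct
Slc25a4: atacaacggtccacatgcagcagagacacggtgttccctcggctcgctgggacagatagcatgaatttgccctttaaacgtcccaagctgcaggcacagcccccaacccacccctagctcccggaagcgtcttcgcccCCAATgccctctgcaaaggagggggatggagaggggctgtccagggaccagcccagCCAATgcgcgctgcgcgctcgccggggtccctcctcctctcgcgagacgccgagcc
Estrogen-related receptors are nuclear receptors known to act on genes of mitochondrial energy metabolism in the heart. None of the 3 motifs was found in the window of Slc25a12, the window of Slc25a20 held 3 GC boxes, and that of Slc25a4 held 2 CCAAT boxes. Of the 36 members with an entry, 25 held a GC box (69.4%, beside 35.4% of all 27025 genes), 18 a CCAAT box (50%, beside 37.5%) and 1 an AAGGTCA, Slc25a34 (2.78%, beside 4.7%). The 27025 genes were not limited to protein-coding genes, while the members are all protein-coding. These shares therefore do not show a trait of the family, and no difference between them was tested. A match is a run of letters only, and its absence from these windows says nothing of a factor.

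Slc25a13 encodes citrin, the second aspartate/glutamate carrier, which prevails in liver, and it spans 177 kb at chr6:6040252-6217294. Its level in normalised CPM was 96.9, 235 and 167 in P1 control, 237, 41.4, 133 and 651 in P1 Casp2-depleted, 276, 407, 192 and 305 in P7 control, and 364, 226, 143 and 154 in P7 Casp2-depleted libraries. At P14 it was 426, 181 and 67.6 in control and 111, 185 and 103 in Casp2-depleted libraries. The groups compared overlapped. Its P14 over P7 log2 fold change in Casp2-depleted CMs was -0.74 (SE 0.60, adjusted p = 0.541), the same comparison in which Slc25a12 was called.

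**Figure D4:**
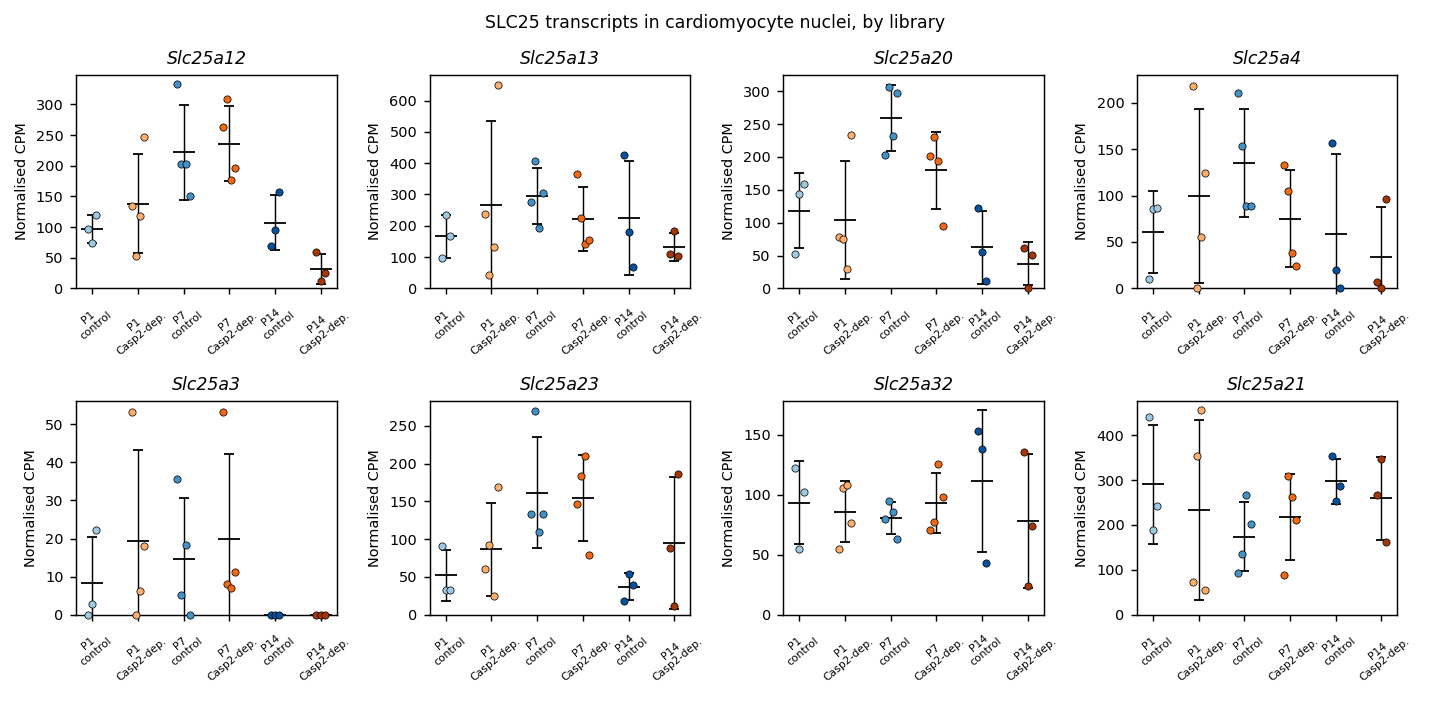
Level of 8 SLC25 genes in normalised CPM in each library (points), with the mean and SD of each group (bars, n = 3 or 4, cut at 0 where the SD exceeds the mean). Each axis starts at 0 and has its own scale. The group mean of Slc25a12 is highest at P7 and lowest in P14 Casp2-depleted (libraries at 12 to 58.5, where 1 P1 Casp2-depleted library at 52.6 also lies). Slc25a20 is lower in all P14 than in all P7 libraries of its genotype, and Slc25a3 is at 0 in all 6 P14 libraries.

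The other shuttle and glutamate carriers were sparse. Slc25a11, the oxoglutarate/malate carrier that works with aralar in the shuttle, had 131, 0 and 4 reads in P1 control, 46, 0, 0 and 11 in P1 Casp2-depleted, 53, 30, 18 and 1 in P7 control, and 37, 0, 3 and 0 in P7 Casp2-depleted libraries. In P14 control it had 0 reads in all 3 libraries, and in P14 Casp2-depleted it had 64, 0 and 0. Its P14 control level was at least 22.4-fold lower than in P7 control when 0 is set to a floor of 3 reads over the group, and the fitted change was not called (adjusted p = 0.254, edgeR). Rnf167 and Gp1ba overlap Slc25a11 on the other strand, and whether the counting used strand is not given in the sources used here, so reads of such pairs cannot be told apart. The glutamate carriers Slc25a18 and Slc25a22 had 227 reads in 11 libraries and 29 reads in 5 libraries.

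Among carriers of carnitine, citrate and dicarboxylates, Slc25a20 (ENSMUSG00000032602, chr9:108539250-108562760, plus strand) encodes the carnitine/acylcarnitine carrier, the step by which long-chain acylcarnitines enter the matrix. Its level in normalised CPM was 53.0, 143 and 158 in P1 control, 77.4, 74.4, 29.1 and 234 in P1 Casp2-depleted, 203, 307, 232 and 297 in P7 control, and 201, 230, 193 and 95.6 in P7 Casp2-depleted libraries. At P14 it was 122, 55.5 and 10.6 in control and 61.3, 0.63 and 50.5 in Casp2-depleted libraries, the second of these from 1 read. The P14 libraries of each genotype lay below its P7 libraries, and the P7 control libraries lay above the P1 control libraries. P14 over P7 gave -2.05 (SE 0.75, adjusted p = 0.163, edgeR) in control and -2.26 (SE 0.76, adjusted p = 0.0815) in Casp2-depleted CMs, and neither was called. With the no-gene share of reads as a covariate these log2 fold changes were -0.93 and -0.99. Without P14 control replicate 1 the control change was called (-2.97, adjusted p = 0.042), and without P14 control replicate 4 the Casp2-depleted change was called (-2.26, adjusted p = 0.043). Without P14 Casp2-depleted replicate 3, the library with 1 read, the Casp2-depleted change was -1.46 (adjusted p = 0.495), and without P14 control replicate 4 the control change was -1.55 (adjusted p = 0.52).

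Slc25a21, a carrier of oxoadipate and related dicarboxylates, had 441, 189 and 243 normalised CPM in P1 control, 71.9, 353, 456 and 55.5 in P1 Casp2-depleted, 92, 135, 267 and 202 in P7 control, and 87.4, 308, 263 and 211 in P7 Casp2-depleted libraries. At P14 it had 353, 253 and 286 in control and 268, 347 and 163 in Casp2-depleted libraries. The groups compared overlapped, and P14 over P7 in control CMs gave a log2 fold change of 0.77 (SE 0.58, adjusted p = 0.473). Without scaling factors, its P14 libraries lay above its P7 libraries in both genotypes. Pax9 overlaps it on the other strand. The citrate carrier gene Slc25a1 had 6 reads in 2 libraries and the dicarboxylate carrier gene Slc25a10 had 15 reads in 3 libraries.

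The ADP/ATP and phosphate carriers, among the most abundant mitochondrial proteins of the heart, had uneven nuclear reads. Slc25a4 (ENSMUSG00000031633, chr8:46656538-46664325, minus strand) encodes the ADP/ATP carrier of heart and muscle. Its level in normalised CPM was 9.63, 85.9 and 86.6 in P1 control, 218, 0, 55.5 and 124 in P1 Casp2-depleted, 210, 153, 89.0 and 88.5 in P7 control, and 133, 105, 37.8 and 23.9 in P7 Casp2-depleted libraries. At P14 it was 157, 20.3 and 0 in control and 6.35, 0 and 96.3 in Casp2-depleted libraries. Replicates of one group thus ran from 0 to 157 or 218, and the only separation was P7 control above P1 control, by 88.5 against 86.6, which the scale without factors did not show. P1 control replicate 1, which was left out, had 566 CPM of reads on genes. The fitted P7 over P1 change in control CMs was 1.16 on the log2 scale (SE 1.01, adjusted p = 0.867).

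Slc25a3 encodes the phosphate carrier, which brings in the phosphate for ATP synthesis. It had 0, 4 and 28 reads in P1 control, 106, 0, 9 and 36 in P1 Casp2-depleted, 68, 7, 28 and 0 in P7 control, and 114, 10, 10 and 16 in P7 Casp2-depleted libraries. All 6 P14 libraries had 0 reads. Against the floor of 3 reads over the group, its level in pooled reads was at least 36.1-fold lower at P14 than at P7 in Casp2-depleted CMs. In control CMs it was at least 22.7-fold lower. These bounds leave out the spread between pools. The adjusted p was 0.195 and 0.255 by edgeR, so neither was called, while DESeq2 called it in Casp2-depleted CMs. Slc25a5, the ADP/ATP carrier of dividing and many other cells, had reads in only 3 libraries, with 24 and 14 in P7 control replicates 2 and 3 and 1 in P7 Casp2-depleted replicate 1. Slc25a31, the ADP/ATP carrier of the germ line, had 56 reads in 7 libraries.

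The calcium-regulated ATP-Mg/phosphate carriers set the adenine nucleotide content of the matrix. Slc25a23 had 90.9, 33.1 and 32.6 normalised CPM in P1 control, 59.8, 92.6, 25.1 and 169 in P1 Casp2-depleted, 133, 270, 109 and 133 in P7 control, and 147, 183, 211 and 78.7 in P7 Casp2-depleted libraries. At P14 it had 18.4, 54.0 and 38.7 in control and 88.1, 11.3 and 186 in Casp2-depleted libraries. In control CMs the P7 libraries lay above those of both other days, with log2 fold changes of 1.63 (SE 0.84, adjusted p = 0.626) for P7 over P1 and -2.12 (SE 0.86, adjusted p = 0.24) for P14 over P7. In Casp2-depleted CMs the 3 days overlapped. Crb3 overlaps it on the other strand.

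Slc25a25, of the same class, had 10, 12 and 61 reads in P1 control, 53, 10, 2 and 51 in P1 Casp2-depleted, 60, 9, 30 and 27 in P7 control, and 44, 74, 9 and 57 in P7 Casp2-depleted libraries. In P14 control it had 0 reads in all 3 libraries, and in P14 Casp2-depleted it had 43, 79 and 0. The P14 control level was at least 27.7-fold below P7 control and at least 25.9-fold below P1 control. Neither change was called by edgeR (adjusted p = 0.157 and 0.335), and DESeq2 called both. Slc25a24 and Slc25a41 had 119 and 235 reads in 5 and 11 libraries.

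Carriers of cofactors and nucleotides included members read in nearly all libraries. Slc25a32, which serves folate and flavin in mitochondria, had 122, 54.9 and 102 normalised CPM in P1 control, 54.3, 105, 107.7 and 76.0 in P1 Casp2-depleted, 79.5, 94.3, 85.7 and 63.0 in P7 control, and 70.5, 76.9, 126 and 97.7 in P7 Casp2-depleted libraries. At P14 it had 153, 138 and 43.3 in control and 135, 24 and 74.1 in Casp2-depleted libraries. Its groups overlapped in every comparison, and its log2 fold changes between groups ran from -0.52 to 0.47.

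Slc25a42, a coenzyme A carrier, had 0, 118 and 77.9 normalised CPM in P1 control, 101, 133, 88 and 107 in P1 Casp2-depleted, 134, 49.0, 68.7 and 78.7 in P7 control, and 89.7, 96.7, 90.1 and 14.8 in P7 Casp2-depleted libraries. At P14 it had 170, 9 and 68.3 in control and 47.2, 32.2 and 5.90 in Casp2-depleted libraries. It was lower in every P14 than in every P1 Casp2-depleted library, at -1.91 on the log2 scale (SE 1.00, adjusted p = 0.292, edgeR). Of the others in the class, Slc25a51, an NAD carrier, had the most reads, 1655, and Slc25a17 had 86.

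Of the carriers of iron and glutathione, Slc25a37 (mitoferrin-1) had 0, 0 and 13 reads in P1 control and 79, 73, 61 and 45 in P7 control libraries. It had 10, 0, 0 and 57 reads in P1 Casp2-depleted and 99, 79, 79 and 0 in P7 Casp2-depleted libraries, and each P14 group had 1 library with reads, with 56 in control and 32 in Casp2-depleted. Slc25a28 (mitoferrin-2) had 0 reads in P1 control, 54, 73, 13 and 19 in P7 control and 0 in P14 control. In Casp2-depleted CMs it had 23, 0, 0 and 34 reads at P1, 75, 2, 6 and 0 at P7 and 0 at P14. Both mitoferrins were higher in every P7 than in every P1 control library. The adjusted p was 0.636 for Slc25a37 and 0.626 for Slc25a28 by edgeR, and limma-voom called Slc25a28. In P1 control replicate 1, which was left out, Slc25a28 had 41.7 CPM of reads on genes, so its absence at P1 rests on replicates 2 to 4. The glutathione carrier genes Slc25a39 and Slc25a40 had 165 and 641 reads.

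Among the amino acid carriers, Slc25a44 separated the genotypes at P1 and at P14, in opposite directions. Slc25a44, which carries branched-chain amino acids, had 53, 37 and 27 reads in P1 control and 0, 0, 20 and 2 in P1 Casp2-depleted libraries. It had 0, 1, 10 and 0 reads in P7 control and 57, 25, 16 and 0 in P7 Casp2-depleted libraries. At P14 it had 0 reads in all 3 control libraries and 44, 12 and 57 in Casp2-depleted libraries. The P14 Casp2-depleted level was at least 33.8-fold that of control, against the floor of 3 reads over the control group. By edgeR the adjusted p was 0.373 at P14 and 0.925 at P1, and the interaction for P14 over P1 had an unadjusted p of 0.00514 and an adjusted p of 0.24. DESeq2 and limma-voom called the P14 difference. Slc25a38, the glycine carrier of heme synthesis, had 11, 71 and 148 reads in P1 control, 64, 0, 56 and 7 in P1 Casp2-depleted, 0, 7, 30 and 22 in P7 control, 61, 1, 44 and 45 in P7 Casp2-depleted, 110, 35 and 4 in P14 control and 49, 0 and 0 in P14 Casp2-depleted libraries. Its groups overlapped throughout.

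Of the carriers like uncoupling proteins, Slc25a27 (UCP4) had 47, 80 and 7 reads in P1 control, 89, 20, 37 and 19 in P7 control and 0, 6 and 0 in P14 control libraries. In Casp2-depleted CMs it had 58, 2, 68 and 55 reads at P1, 114, 23, 88 and 33 at P7 and 0, 14 and 245 at P14. In normalised CPM the P14 control libraries lay below those of both earlier days, though at P1 not without scaling factors, and the P14 Casp2-depleted libraries held both the lowest and the highest counts of their genotype. Slc25a14 and Slc25a30 had 106 and 58 reads.

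Of the orphan and remaining members, Slc25a43 had 13, 2 and 72 reads in P1 control, 20, 32, 12 and 30 in P7 control and 45, 89 and 18 in P14 control libraries. In Casp2-depleted CMs it had 12, 4, 0 and 7 reads at P1, 13, 27, 45 and 81 at P7 and 85, 0 and 0 at P14, and P7 lay above P1 with a log2 fold change of 3.18 (SE 1.90, adjusted p = 0.842, edgeR). Slc25a46, which lies in the outer membrane and takes part in its dynamics, had 204, 11 and 3 reads in P1 control, 134, 25, 105 and 104 in P1 Casp2-depleted, 58, 23, 91 and 13 in P7 control, 96, 0, 95 and 0 in P7 Casp2-depleted, 0, 56 and 92 in P14 control and 0, 56 and 22 in P14 Casp2-depleted libraries. Its groups overlapped in every comparison. Slc25a29, at 0 reads, and Slc25a47, with 864 reads, overlap each other on opposite strands.

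Of the 6 members read in all 21 libraries, 4 had lower and 1 had higher normalised CPM in libraries with a high no-gene share of reads. The relation of Slc25a32 did not pass the test. Over the 21 libraries, log2 normalised CPM had a Pearson correlation with that share of -0.73 for Slc25a12 (Spearman -0.81), -0.72 for Slc25a13 (-0.73), -0.66 for Slc25a20 (-0.89) and -0.56 for Slc25a23 (-0.53), of 0.74 for Slc25a21 (0.61) and of 0.05 for Slc25a32 (0.18). In permutation tests with 100000 resamples, adjusted over the 6 relations, the p of Pearson's r was 0.00042, 0.00042, 0.000555, 0.0107, 0.00042 and 0.828 in that order. The p values of Spearman's rho were 6e-05, 0.00056, 6e-05, 0.017, 0.00653 and 0.425. Since the share differed between days, it was also set against levels within groups, where r was -0.48, -0.76, -0.39, -0.25, 0.79 and 0.18 with adjusted permutation p of 0.0622, 0.00666, 0.00994, 0.316, 0.00994 and 0.316. Without the 2 libraries farthest from the median share, r over all libraries was -0.72, -0.67, -0.65, -0.47, 0.70 and 0.05. Over all 3020 genes read in every library, the median within-group r was -0.09. It was 0.30 over the 566 genes with a span of 300 kb or more, where Slc25a21 falls, and -0.21 over the 986 genes of 30 to 100 kb, where Slc25a12 falls. Over the 1172 genes of 100 to 300 kb, where Slc25a13 falls, it was -0.08. Over the 250 genes of 10 to 30 kb, where Slc25a20, Slc25a23 and Slc25a32 fall, it was -0.18. In P7 control replicate 2, with a share of 36.7%, Slc25a23 had 270 normalised CPM and 155 CPM without scaling factors. In P14 Casp2-depleted replicate 4, with a share of 75.5%, it had 186 and 291. The relations of the 6 members were not run without scaling factors, and the part of scaling in them was not tested.

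**Figure D5:**
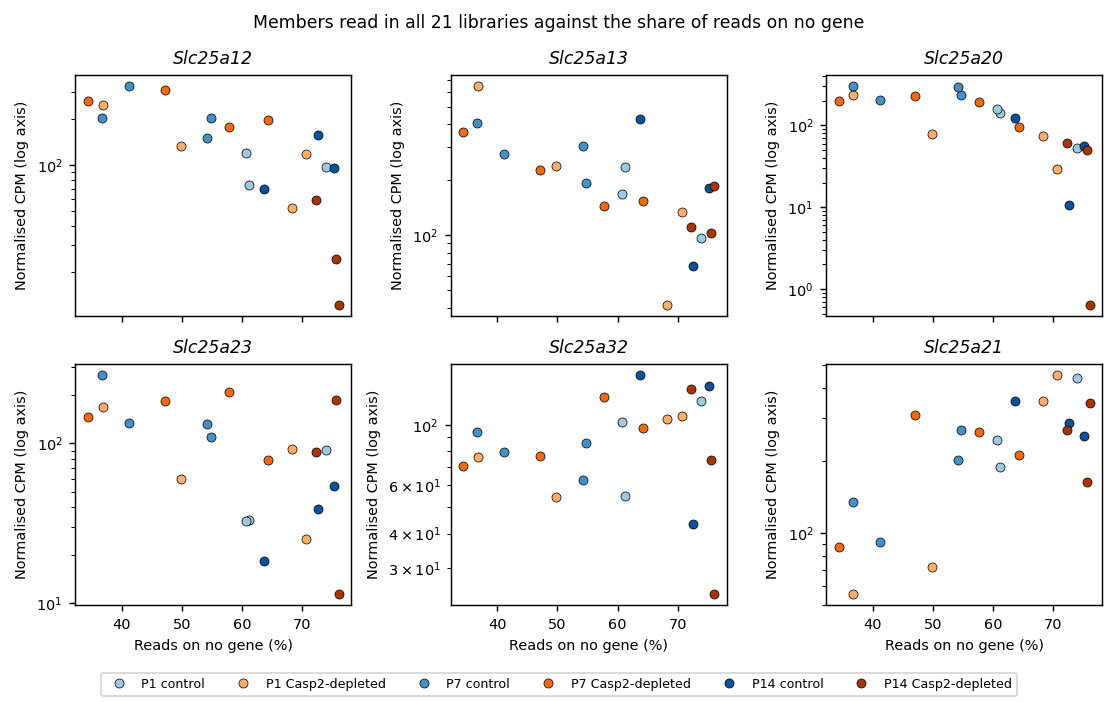
Level of the 6 SLC25 genes read in all 21 libraries (normalised CPM, log axis) against the percentage of each library's reads that lie on no gene. Points are libraries, coloured by group. Slc25a12, Slc25a13 and Slc25a20 are lower where that share is high, Slc25a21 is higher, and the P14 libraries lie at 63.7% or more.

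Genes that work beside the carriers gave few calls. Of the 5 carrier relatives outside the symbol rule (Ucp1, Ucp2, Ucp3, Mtch1 and Mtch2), none was called in the 9 comparisons between groups. Mtch2, an insertase of the outer membrane, had 107 reads in P7 and 0 in P14 Casp2-depleted libraries. None of 23 genes for other mitochondrial transport was called, among them Vdac1, the main outer membrane channel, with 288 reads in P7 control, 223 in P7 Casp2-depleted and 0 in both P14 groups. Of 14 partner enzymes, 12 were tested and 2 were called, both lower in P14 over P7 of Casp2-depleted CMs, the comparison that called Slc25a12. Cs, the citrate synthase, fell by 2.25 on the log2 scale (SE 0.61, adjusted p = 0.012, edgeR) and Ckmt2, the mitochondrial creatine kinase, fell by 2.35 (SE 0.67, adjusted p = 0.0222). In control CMs, Cs had a log2 fold change of -1.47 (SE 0.59, adjusted p = 0.23), which was not called. Cpt1b and Oat had 0 reads in all 6 groups and were not tested.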

How the data were processed

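Sorted CM nuclei were profiled with QuantSeq 3′ mRNA-Seq (Lexogen). The deposited values are raw counts per gene, made by the authors with cutadapt 4.0, STAR 2.6.1e and HTSeq 2.0.3 on GRCm39, per the submitters' processing notes. Whether the counting used strand is not given in the sources used here. A nuclear library keeps intron reads, and priming within them can raise the counts of long genes. Counts were fitted with edgeR 4.0.16 (R 4.3.3), TMM scaling, 6 group means and robust quasi-likelihood, for 20368 genes (a total of 10 reads or more, detected in 3 libraries or more). Calls needed adjusted p < 0.05 with a log2 fold change past 1 in either direction. DESeq2 1.42.0 and limma 3.58.1 were alternatives. The fit was also run on simulated counts, in which only genes with many reads were changed. Its pass mark was set at a smaller spread between libraries than these data have. It does not show what the fit recovers for members near 0 reads. Replicates are separate pools of hearts, and p-values measure the spread between pools. Bounds set 0 to 3 reads over a group, pool the reads of the other group and cover counting error only. They leave out the spread between pools, so they are not limits on the change in level. Members with every library's value given were the main heart carriers, those called and the member with the most reads in each class. Added to these were, for each comparison, the members with the smallest unadjusted p (edgeR) among those whose groups did not overlap. Other members that did not overlap, such as Slc25a34, are given by counts only. Members and lists were chosen with earlier results of these data known. The 3 libraries left out were used only as an alternative and in the closing section. The values of 1 member are not reported here; it stays in the counts over the family.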

Additional observations from a re-analysis of the deposited data

Results flagged for a closer look

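In 60 sets of 4 replicates of the members named above and of the family sum, 9 had a library far from the other 3 in normalised CPM. In 7 of the 9 it was the highest. The rule flags about 1 in 20 sets of normally distributed values. These counts are skewed with many values of 0, so that rate does not apply and 9 cannot be read as an excess. In P7 Casp2-depleted, replicate 1 was highest for Slc25a3 (53.3, next 11.3), Slc25a28 (35.03, next 4.13), Slc25a11 (17.3, next 2.06) and Slc25a5 (0.467 from 1 read, the others at 0). That library had the lowest share of reads on no gene of the 21, 34.3%, and the most reads on genes, 2924097, and the part of either in these values was not tested. In the same group Slc25a42 was lowest in replicate 4 (14.8, next 89.7) and Slc25a38 in replicate 2 (0.793, next 28.5). Slc25a23 was highest in P7 control replicate 2 (270.1, next 133), and Slc25a44 in P1 Casp2-depleted replicate 3 (13.5, next 1.00) and in P7 control replicate 3 (6.55, next 0.72).

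P1 control replicate 1, which the comparisons do not use, had 9.21% of its reads on no gene and 7 named members above the other P1 control libraries, in CPM of reads on genes. Slc25a4 had 566 against at most 83.8, Slc25a13 had 329.5 against 216, Slc25a12 had 205 against 130 and Slc25a3 had 165.5 against 21.5. Slc25a28 had 41.7 and Slc25a5 had 17.5, both at 0 in the other libraries, and Slc25a37 had 17.2 against 9.997. Over the 43 tested members, 12 lay above the range of the other P1 control libraries, 8 lay below it and 23 lay within it. Among those below were Slc25a21, with 4.23 against 174 to 589, and Slc25a32, with 34.1 against 50.5 to 163. These values come from 1 library and were not tested. The study took high mitochondrial gene sets in this library as a sign of cytoplasmic contamination, and its part in these values was not tested.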

How the results depend on the processing

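DESeq2 called 1 member for P14 over P7 in control and 3 in Casp2-depleted CMs, 3 for P14 over P1 in each genotype, 3 for genotype at P14 and 2 for the interaction of P14 over P1. Limma-voom with TMM called 2 members for P7 over P1 in control CMs, 4 for P14 over P7 in control and 3 in Casp2-depleted CMs, 2 for P14 over P1 in control CMs, 1 for genotype at P14 and 1 for the interaction of P14 over P1. With quantile normalization these counts were 3, 4, 1, 2, 1 and 1. The 1 member for P14 over P7 in Casp2-depleted CMs was then Slc25a34, not Slc25a12. For P14 over P7 in Casp2-depleted CMs, 0 members were called with all 24 libraries, without scaling factors or with the no-gene share of reads as a covariate. At an unadjusted p the counts were 3 and 4 for P7 over P1, 12 and 8 for P14 over P7 and 8 and 10 for P14 over P1 (control first), 4, 1 and 8 for genotype at P1, P7 and P14, and 4, 7 and 11 for the interactions. Leaving out 1 library at a time gave 0 to 1 for P14 over P7 in control, 0 to 2 in Casp2-depleted CMs and 0 to 1 for P14 over P1 in Casp2-depleted CMs, and 0 in the other 9 tests. The shares of all genes called under these settings are not given, so the counts are not read as a result about the members. Where calls changed, the cause was not tested. For the members called, or named because their groups did not overlap, no fold change in those comparisons changed sign under any alternative run. The sign was not checked this way for the other members.

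Replicate numbers were not treated as pairs in the main fit. Correlations of same-numbered libraries of the 2 genotypes ran from -0.06 to 0.18, and those of other library pairs from -0.135 to 0.096. These ranges overlap, the highest value is of a same-numbered pair, and they do not settle whether the numbers mark pairs. With the replicate number as a block, Slc25a12 kept its call (-2.94, adjusted p = 0.00864, edgeR). The fit with a non-robust spread, chosen after seeing the data, also kept it (-2.90, adjusted p = 0.023). A biological coefficient of variation of 1.5 and reads near 0 in many libraries limit what these data can resolve for most members.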
